A study of Mus musculus with 8 samples.

Results

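Spliced transcripts far from coding genes were followed in mouse liver, between animals that had eaten freely and animals that had fasted. They are the entries of the NONCODE catalogue with 2 or more exons that lie more than 10 kb from every protein-coding gene of GENCODE release M21 on either strand, overlap no GENCODE pseudogene, lie outside the mitochondrial chromosome and hold at least 50 reads summed over the 8 libraries. The rule used the total of reads and not the difference between the groups. It kept 4199 of the 83057 catalogue transcripts in the deposited table, out of 38249 with 2 or more exons and 12821 that are spliced and far whatever their reads. The table gives a start and an end per transcript and no exon positions, so transcripts whose spans overlap on either strand were joined into 2257 loci, of which 1597 hold 1 transcript. A locus is described by its transcript with most reads.

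The libraries came from the livers of male mice of the C57BL/6 strain, bought from Jackson Laboratory and about 20 weeks old. The first group of 4 fed ad libitum and the second group of 4 was fasted for 24 h. All mice were killed at 10 am, had been housed together and were assigned at random, and they carried no transgene, deletion or drug treatment named in the labels. The question put by the design is which liver transcripts differ after a fast. Nothing in the labels states that each library is a different mouse, so p-values measure the spread between these libraries.

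Long non-coding RNAs are made by RNA polymerase II and are often spliced and polyadenylated like messenger RNAs, but no long protein is read from them. Those that lie between coding genes are called intergenic; some act in the nucleus on nearby or distant genes, some host microRNAs or small nucleolar RNAs, and for most no function is known. In the fasted liver, falling insulin and rising glucagon and glucocorticoids move hepatocytes from glycogen and fat synthesis to fat oxidation, glucose output and ketone production.

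RefSeq promoter windows (GRCm38.p6), from 250 bases before to 50 bases after a transcript start, are shown for 7 loci whose changes are described below. The first 4 belong to loci that were higher in fasted livers and the other 3 to loci that were lower. The RefSeq start in each window lies within 25 bases of the start of a catalogue transcript on the same strand. Capitals mark matches to any of 13 fixed motifs, which are named with their frequencies further on, and a window without capitals held none of them.
1810053B23Rik (chr16:93354022-93354321, minus strand): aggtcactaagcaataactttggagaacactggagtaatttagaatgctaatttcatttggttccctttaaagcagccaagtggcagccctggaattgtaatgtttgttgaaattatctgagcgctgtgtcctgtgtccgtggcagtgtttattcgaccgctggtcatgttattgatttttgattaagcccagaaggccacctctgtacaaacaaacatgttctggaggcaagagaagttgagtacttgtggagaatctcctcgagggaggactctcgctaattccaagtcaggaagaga
B930025P03Rik (chr8:10882405-10882704, minus strand): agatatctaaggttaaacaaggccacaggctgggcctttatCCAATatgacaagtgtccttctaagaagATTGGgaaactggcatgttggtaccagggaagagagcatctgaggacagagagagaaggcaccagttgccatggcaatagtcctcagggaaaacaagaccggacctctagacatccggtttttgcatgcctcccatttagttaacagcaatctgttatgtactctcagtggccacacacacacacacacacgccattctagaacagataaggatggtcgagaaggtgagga
4833411C07Rik (chr8:10899672-10899971, plus strand): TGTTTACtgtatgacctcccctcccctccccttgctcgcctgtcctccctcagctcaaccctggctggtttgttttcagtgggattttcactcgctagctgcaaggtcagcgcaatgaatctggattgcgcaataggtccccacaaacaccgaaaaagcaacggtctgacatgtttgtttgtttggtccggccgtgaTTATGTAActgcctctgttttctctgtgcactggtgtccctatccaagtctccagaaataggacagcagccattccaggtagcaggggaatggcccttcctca
3930402G23Rik (chr8:10928408-10928707, minus strand): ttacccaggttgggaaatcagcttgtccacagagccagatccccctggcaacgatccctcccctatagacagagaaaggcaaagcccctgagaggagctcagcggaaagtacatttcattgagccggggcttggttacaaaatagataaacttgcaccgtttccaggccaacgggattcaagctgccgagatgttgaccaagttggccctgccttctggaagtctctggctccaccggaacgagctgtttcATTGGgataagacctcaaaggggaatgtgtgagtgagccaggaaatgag
C730036E19Rik (chr1:151137784-151138083, plus strand): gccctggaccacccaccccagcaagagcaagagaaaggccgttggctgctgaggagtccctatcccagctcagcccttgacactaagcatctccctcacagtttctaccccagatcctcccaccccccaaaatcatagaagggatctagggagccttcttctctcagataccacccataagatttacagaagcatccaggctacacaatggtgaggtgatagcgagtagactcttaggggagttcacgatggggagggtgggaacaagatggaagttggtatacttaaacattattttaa
Gm33459 (chr9:74528637-74528936, minus strand): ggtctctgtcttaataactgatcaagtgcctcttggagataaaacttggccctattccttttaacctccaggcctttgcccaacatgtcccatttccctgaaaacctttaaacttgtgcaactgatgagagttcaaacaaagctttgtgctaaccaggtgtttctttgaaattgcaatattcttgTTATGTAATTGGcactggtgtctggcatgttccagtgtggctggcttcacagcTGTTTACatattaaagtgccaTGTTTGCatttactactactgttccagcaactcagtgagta
AW112010 (chr19:11050517-11050816, minus strand): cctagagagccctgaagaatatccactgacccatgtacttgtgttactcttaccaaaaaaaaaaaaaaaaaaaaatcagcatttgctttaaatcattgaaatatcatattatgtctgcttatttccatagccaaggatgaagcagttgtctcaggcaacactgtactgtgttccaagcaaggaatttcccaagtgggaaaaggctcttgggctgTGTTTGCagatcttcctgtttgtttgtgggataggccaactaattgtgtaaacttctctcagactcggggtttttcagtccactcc

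Fasted replicates 1 to 3 stood apart from the other 5 libraries, and this touches every comparison. Odd numbers made up 9.21 to 10.3% of the counts between 21 and 200 reads in livers of fed animals and 10.8% in fasted replicate 4, but 16.5 to 17.8% in fasted replicates 1 to 3, over all rows of the table. Over the 4199 transcripts alone the share was 6.37 to 9.62% in ad libitum livers and up to 12.4% in fasted ones, where replicates 1 and 2 lay above the ad libitum range and replicates 3 and 4, at 9.25 and 9.38%, within it. Over the loci, the first principal component (49.0% of variance) placed the fed livers at -19.6 to -17.3, fasted replicates 1 to 3 at 21.6 to 24.1 and fasted replicate 4, alone of its group, at 4.51. The second component (13.8%) set fasted replicate 4 at -25.4. Library totals, without the mitochondrial 16S rRNA, ran from 51107745 to 119486211 reads and were higher in each fasted library than in any ad libitum library. The called changes of single transcripts are therefore given also for fasted replicate 4 alone against the 4 ad libitum libraries, from the same model with a term for fasted replicates 1 to 3. That comparison holds 1 fasted library, so its p-values take their spread from the other libraries and not from fasted replicate 4. This library also entered the whole comparison, so the results are not independent. What sets fasted replicates 1 to 3 apart, and its part in the results, was not tested.

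**Figure D1:**
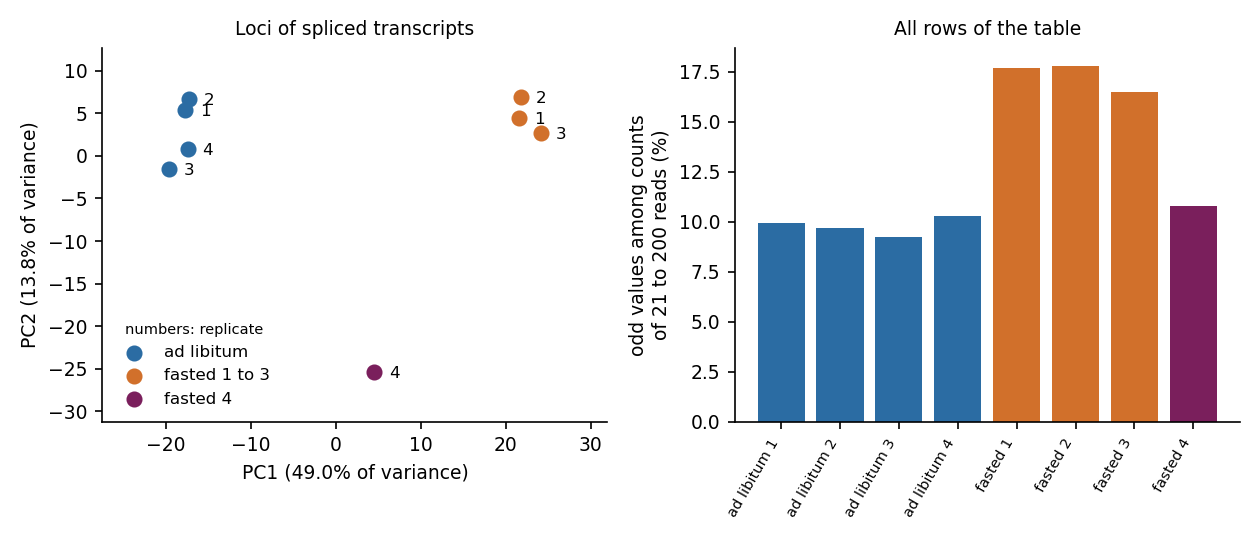
Left, the 8 libraries on the first 2 principal components of log2 CPM over the loci, with the percent of variance on each axis and the replicate number beside each point. Right, the percent of odd values among counts of 21 to 200 reads in each library, over all rows of the table. Fasted replicate 4 lies away from fasted replicates 1 to 3 on both components, and its percent of odd counts, 10.8, is close to the 9.21 to 10.3 of the ad libitum libraries.

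The tissue label was checked on catalogue transcripts over the exons of marker genes. Of 12 hepatocyte markers 3 had such transcripts, at a summed 366 to 497 CPM (counts relative to the TMM-scaled library total) in ad libitum livers and 1380 to 1720 CPM in fasted ones. These did not move together: Apoa4 stood at 44.8 to 59.7 and 511 to 1050 CPM and Cps1 at 246 to 382 and 641 to 845 CPM, while Ttr was lower in fasted livers, at 59.0 to 69.4 and 25.3 to 27.8 CPM. The 4 endothelial markers found summed to 87.9 to 118 and 86.6 to 103 CPM, and the 2 of Kupffer cells to 4.01 to 5.48 and 3.40 to 3.99 CPM. Most of the endothelial sum was Ptprb, at 84.8 to 115 and 82.7 to 100 CPM, and most of the Kupffer sum was Csf1r. In fasted replicates 1 to 3 Pecam1 (0.990 to 1.33 against 0.670 to 0.832 CPM) and Stab2 (2.41 to 2.93 against 1.72 to 2.06 CPM) were higher. Clec4g was lower there (0.207 to 0.386 against 0.432 to 0.670 CPM). In fasted replicate 4 Pecam1, Stab2 and Clec4g lay within the ad libitum range. Stellate markers (4 of 6) summed to 19.3 to 35.1 CPM in ad libitum livers, 55.1 to 73.1 CPM in fasted replicates 1 to 3 and 25.6 CPM in fasted replicate 4. The higher sum was that of Reln, at 5.28 to 10.4 CPM in ad libitum livers, 43.2 to 56.6 CPM in fasted replicates 1 to 3 and 9.08 CPM in fasted replicate 4. Lrat, at 5.93 to 13.7 and 3.70 to 5.47 CPM, was lower in every fasted library, Col1a1 stood at 0.629 to 1.15 CPM against 0.271 to 0.356 CPM in fasted replicates 1 to 3 and 0.673 CPM in fasted replicate 4, and Dcn overlapped. Pancreas, fat and muscle markers (2 of 6) stayed at or below 1.30 CPM, biliary ones (3 of 5) at or below 1.97 CPM and the 1 blood marker with a row, of 6, at or below 4.28 CPM. Albumin, haemoglobins and the other markers without a row were not analysed here. The part of these cell types in the changes below was not tested, and in whole liver fewer cells of a type and less RNA per cell cannot be told apart.

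The median transcript was 1344 bases long, lay 46180 bases from the nearest coding gene and held 228 reads over the 8 libraries, and 55.1% had exactly 2 exons. A GENCODE gene on the same strand covered 1973 transcripts in 749 loci, and 361 transcripts had exactly the ends of a GENCODE transcript. RefSeq, which differs from GENCODE in places, put a coding gene, pseudogene or ribosomal RNA gene over 370 of them. Transcripts on both strands were found in 107 loci. Whether reads were counted by strand is not given in the sources used here, so partners on opposite strands may share reads. Just inside the limits, NONMMUT000477.2 (chromosome 1) held 50 reads and NONMMUT021659.2 (chromosome 14) lay 10001 bases from Tpt1; just outside, NONMMUT002054.2 held 49 reads and NONMMUT073557.2 lay 9997 bases from Pbdc1.

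Reads were concentrated in a few loci. Of the transcripts that each describe a locus, the 4 with most reads took 42.4% of all reads in the 4199. Further transcripts of the same loci are not among these 4. The first by reads, NONMMUT029667.2 on chromosome 17, lies in GENCODE's Gm42418, where RefSeq places the 18S ribosomal RNA entry Rn18s-rs5; it stood at 23600 to 28400 CPM in ad libitum livers and 14700 to 30400 CPM in fasted ones. The others, NONMMUT042007.2 on chromosome 3, NONMMUT012509.2 on chromosome 11 and NONMMUT055550.2 on chromosome 6, kept a broadly similar ratio of reads to it. The ratio of reads of NONMMUT029667.2 to reads of NONMMUT055550.2 stayed between 11.3 and 12.2 in the 8 libraries, that to NONMMUT012509.2 between 8.50 and 10.3, and that to NONMMUT042007.2 between 1.16 and 1.47. The ratios to NONMMUT012509.2 and NONMMUT042007.2 were lower in every fasted library than in any ad libitum one, though by little at the nearest values. How reads that map to several places were assigned is not given in the sources used here. None of the 4 passed the test between the groups (edgeR adjusted p from 0.69 to 1.0, log2 changes from -0.14 to 0.05).

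Per length the same 4 led among the transcripts that describe loci. NONMMUT042007.2 averaged an RPKM, computed here from counts and length, of 38000 over the 8 libraries, NONMMUT029667.2 14200, NONMMUT012509.2 6990 and NONMMUT055550.2 2970. The next, Gm10076 (NONMMUT022236.2, chromosome 14), averaged 427 and NONMMUT029673.2, beside the first on chromosome 17, 391. Gm10076 stood at 151, 156, 181 and 183 CPM in ad libitum livers and 124, 125, 140 and 149 CPM in fasted ones. Its groups did not overlap, but the fall of 0.32 on the log2 scale missed the threshold (SE 0.11, edgeR adjusted p = 0.058). NONMMUT076768.1, 12.7 kb from Fcgr2b on chromosome 1, averaged an RPKM of 168 and NONMMUT126437.1, 41.5 kb from Zfp954 on chromosome 7, 146. The groups overlapped in both. NONMMUT126437.1 stood at 56.7 to 84.2 CPM in ad libitum livers and at 105, 78.5, 236 and 258 CPM in fasted replicates 1 to 4.

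The share of all reads that fell in the 4199 transcripts was 11.4, 11.1, 12.1 and 10.6% in ad libitum replicates 1 to 4 and 8.82, 10.5, 10.7 and 12.2% in fasted replicates 1 to 4. The groups overlapped, and the means of 11.3 ± 0.606% and 10.6 ± 1.38% (SD, n = 4) did not differ beyond the spread (exact two-sided permutation test, p = 0.429; the smallest possible is 0.0286). Set against the reads of 7646 single-exon transcripts chosen by the same distances and reads, the log2 ratio was -0.343 ± 0.0265 in ad libitum livers and -0.535 ± 0.150 in fasted ones (SD, n = 4; exact permutation p = 0.114). Fasted replicate 4, at -0.323, lay among the ad libitum libraries. Without it the fasted mean was -0.605 ± 0.0634 (exact permutation p = 0.0571, the smallest that 3 against 4 allows). Transcripts with overlapping spans may count the same reads more than once. With 1 transcript per locus the share of all reads was 5.53 ± 0.336% in ad libitum livers and 5.30 ± 0.776% in fasted ones (SD, n = 4, exact permutation p = 0.686).

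Spliced transcripts changed in both directions. Of the 4199, 3260 passed the filter on low counts and 939 did not. Of the 3260, 341 were higher and 295 lower in fasted livers at an edgeR adjusted p under 0.05, or 10.5% and 9.05%. Over all 40840 rows tested, 9.55% were higher and 7.67% lower, so the shares here lie near the background. By locus, 200 of 1689 were higher and 143 lower, or 20.3% in either direction against 17.2% of all rows. The median log2 change was -0.02 for the tested transcripts and 0.01 for all rows.

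Among the calls, 260 rises and 162 falls were 2-fold or larger, beside 5.61% and 2.32% of all rows. The groups did not overlap in 330 transcripts with fasted livers above and 378 with fasted livers below; in all rows tested these were 9.09% and 10.2%. In fasted replicate 4 alone 132 transcripts passed as higher and 50 as lower, beside 2.06% and 1.23% of all rows. Of the 636 called in the whole comparison, 173 (27.2%) had the same call there, against 1238 of 7033 called rows of the whole table (17.6%). In 553 of the 636 (86.9%) fasted replicate 4 lay beyond all 4 ad libitum libraries on the side of the call, against 5767 of 7033 (82.0%). These shares were not tested against each other. Fasted replicate 4 is 1 library and entered the calls of the whole comparison, so the agreement is not independent of them. The median called rise was 1.52 on the log2 scale, and 1.13 in fasted replicate 4; the median called fall was -1.08 and -0.95. Of the 341 rises 27 held at most 12 reads over the 4 ad libitum libraries, and of the 295 falls 2 held at most 12 over the 4 fasted ones. These met the read minimum through the group where they are high, and the size of their fitted change is uncertain. The same holds for any other called transcript with fewer than 50 reads in its lower group, and such transcripts were not counted.

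More of the loci of high level were called. At a mean under 0.5 CPM 78 loci were higher and 29 lower of 741 tested (10.5% and 3.91%). At 10 CPM or more 25 were higher and 21 lower of 125 (20.0% and 16.8%). Over all rows, at any level, 9.55% were higher and 7.67% lower. Shares by level are not given for all rows, so this is not read as a trait of these loci. By distance, 11.8% of loci at 10 to 50 kb from a coding gene were higher and 8.91% lower, against 10.8% and 9.09% at over 200 kb. With 2 exons 11.9% were higher and 7.49% lower, with 3 or more 11.8% and 10.4%. These shares are descriptions and their differences were not tested.

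**Figure D2:**
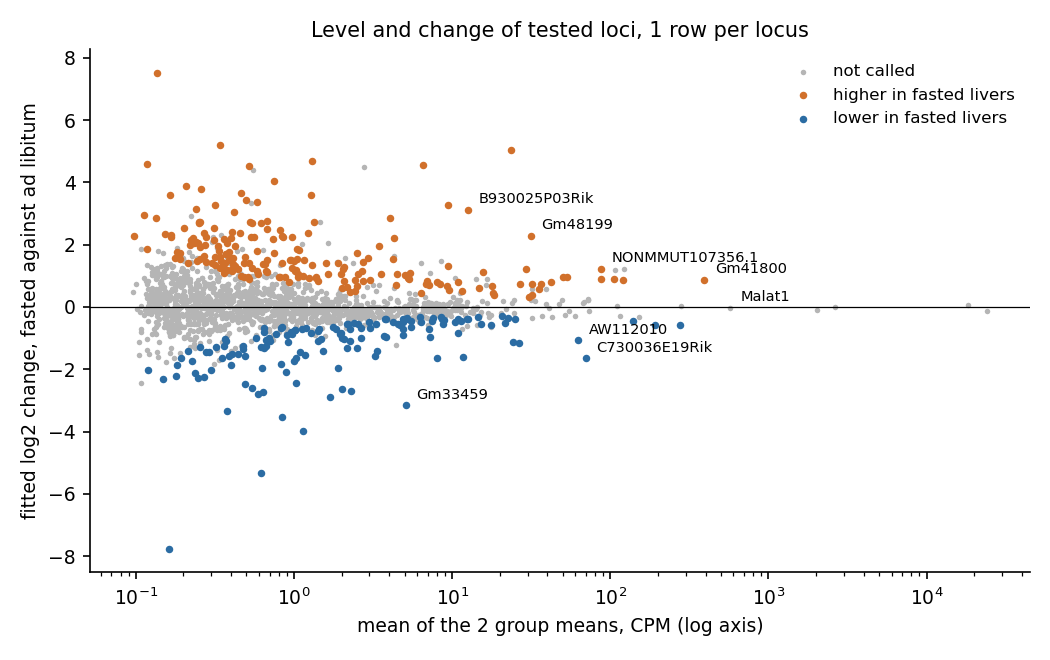
Mean of the 2 group means in CPM (log axis) against the fitted log2 change between fasted and ad libitum livers for the 1689 tested loci, each by its transcript with most reads. Coloured points passed at an adjusted p under 0.05; the 200 rises and 143 falls lie at levels up to that of Gm41800 (277 and 508 CPM in the 2 groups), the 5 loci with most reads were not called, and the called changes of the loci with 10 CPM or more ran from -1.65 to 5.04 on the log2 scale.

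Strong rises came from a pair of neighbouring loci on chromosome 16, 1810053B23Rik and 1810044K17Rik, more than 200 kb from their nearest coding gene, the methyltransferase gene Setd4. The region held 12 transcripts in 2 loci, 11 of them tested, and all 11 were higher in fasted livers, with no overlap between the groups and log2 changes from 2.73 to 5.12. In fasted replicate 4 alone 10 of the 11 passed. No function of either RNA is given here. The spans of the transcripts of 1 locus overlap, so they may share reads and cannot be counted as independent. For all rows tested the share of rises was 9.55%.

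The 1810053B23Rik transcript with 6 exons (NONMMUT100470.1, chr16:93343433-93359059, minus strand) stood at 0.229, 0.216, 0.118 and 0.201 CPM in ad libitum replicates 1 to 4 and at 1.51, 2.31, 2.67 and 2.94 CPM in fasted replicates 1 to 4. Every fasted library, replicate 4 included, lay above every ad libitum one. The transcript held 16, 12, 6 and 14 reads in ad libitum livers and met the read minimum through the fasted libraries, so the size of its change is uncertain. The change was 3.59 on the log2 scale (SE 0.27, edgeR adjusted p = 2.1e-06), and 3.91 in fasted replicate 4 (adjusted p = 6.5e-06). The form with the largest fitted change, NONMMUT027758.2, held only 2, 0, 4 and 2 reads in ad libitum livers, against 94, 142, 127 and 112 in fasted ones. It met the read minimum through the fasted libraries, so its log2 change of 5.12 (SE 0.48, edgeR adjusted p = 1.3e-05; 5.36 in fasted replicate 4, adjusted p = 5.4e-05) has no firm size. 1810044K17Rik (NONMMUT027765.2, chr16:93368313-93369128), on the other strand, stood at 1.09, 0.611, 0.789 and 1.41 CPM and at 6.07, 8.37, 7.08 and 6.96 CPM. It was higher in all 4 fasted libraries by 2.85 on the log2 scale (SE 0.21, edgeR adjusted p = 6.1e-06), and by 2.81 in fasted replicate 4 (adjusted p = 8.9e-05). Over the exons of Setd4, the tested transcript with most reads did not pass (1.77 and 1.73 CPM, log2 change -0.04, edgeR adjusted p = 0.91).

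A second stretch of rising loci lay beside Irs2 on chromosome 8, the gene of insulin receptor substrate 2, an adaptor that carries the insulin signal in hepatocytes. Of 22 tested transcripts in the 4 loci there, 19 were higher in fasted livers, 16 of them in fasted replicate 4 as well, and none was lower. Irs2 itself was not analysed here. The 3 that did not pass were all of Gm32540, the locus farthest from Irs2, with log2 changes of -0.72 and above. For all rows tested the share of rises was 9.55%. B930025P03Rik was named for the size of its rise, and transcripts of 1 locus may share reads, so the 22 cannot be counted as independent.

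B930025P03Rik changed most. Its transcript NONMMUT064566.2 (chr8:10870422-10882454, 102 kb from Irs2) stood at 0.914, 1.08, 0.315 and 1.03 CPM in ad libitum livers and at 9.60, 11, 7.25 and 7.86 CPM in fasted ones. The groups were far apart, and the log2 change was 3.40 (SE 0.31, edgeR adjusted p = 0.00016), with 3.21 in fasted replicate 4 (adjusted p = 0.0031). Its transcript with most reads, NONMMUT129933.1, which also runs over Gm45044, rose from 2.58 ± 0.891 to 22.6 ± 4.82 CPM (SD, n = 4), by 3.12 on the log2 scale (edgeR adjusted p = 0.00015; 3.04 in fasted replicate 4, adjusted p = 0.0063). The next locus toward Irs2 holds 4833411C07Rik and, on the other strand, Gm2814. There NONMMUT128060.1 stood at 9.60, 10.5, 9.50 and 10.3 CPM and at 21.5, 22.5, 20.4 and 21.7 CPM, higher in every fasted library (log2 change 1.11, SE 0.09, edgeR adjusted p = 6.2e-06; 1.12 in fasted replicate 4, adjusted p = 0.00019).

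The locus nearest to Irs2, 3930402G23Rik (NONMMUT129940.1, 56.2 kb), stood at 1.40, 0.683, 1.66 and 0.947 CPM and at 3.70, 6.75, 1.81 and 3.17 CPM. Its groups were separate, but fasted replicate 3 lay just above the highest ad libitum value. The call at a log2 change of 1.73 (SE 0.45, edgeR adjusted p = 0.039) was lost in 9 of 16 alternative fits, where the adjusted p reached 0.17, and fasted replicate 4 alone did not pass (adjusted p = 0.41).

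**Figure D3:**
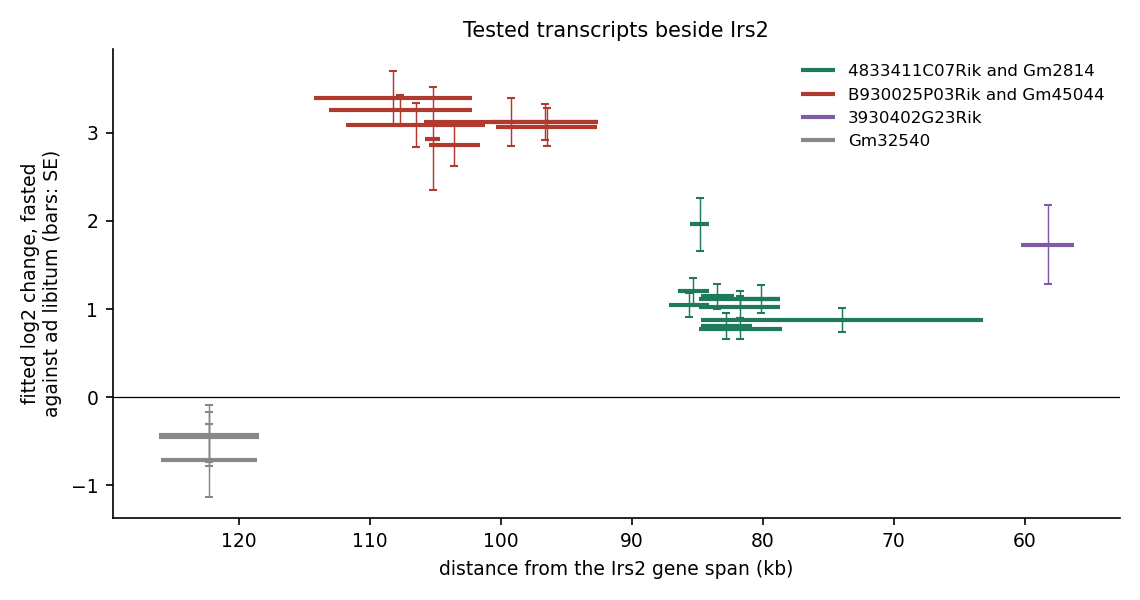
Fitted log2 change between fasted and ad libitum livers (y axis, vertical bars: SE) of the 22 tested transcripts beside Irs2, drawn as horizontal bars over the distance of their span from the Irs2 gene in kb (x axis). The bars of B930025P03Rik and Gm45044 lie near 3, those of 4833411C07Rik and Gm2814 near 1, and those of Gm32540 below 0.

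The other rises named by size were single loci. NONMMUT105205.1, 13.9 kb from the glycosyltransferase gene Gcnt1 on chromosome 19, stood at 0.0857, 0.162, 0.118 and 0.0287 CPM in ad libitum livers and at 2.58, 1.44, 3.53 and 2.39 CPM in fasted ones. It held 6, 9, 6 and 2 reads in ad libitum livers, against 324, 194, 285 and 192 in fasted ones. It met the read minimum through the fasted libraries, so the size of its change is uncertain. All 4 fasted values lay far above the ad libitum ones (log2 change 4.69, SE 0.39, edgeR adjusted p = 1.4e-05; 4.64 in fasted replicate 4, adjusted p = 0.00024). NONMMUT075998.1 on chromosome 1, 68.1 kb from Otos, rose from 0.354 ± 0.177 to 2.32 ± 0.209 CPM (log2 change 2.73, edgeR adjusted p = 3.5e-05; 2.91 in fasted replicate 4, adjusted p = 0.00024), and fasted replicate 4 was the highest at 2.62 CPM. NONMMUT013860.2 on chromosome 12 lies 48.6 kb from Nampt, the gene of the rate-limiting enzyme of NAD salvage. It stood at 1.11, 2.63, 1.77 and 1.58 CPM and at 9.08, 9.12, 29.0 and 21 CPM, so fasted replicates 3 and 4 were higher than 1 and 2 (log2 change 3.27, SE 0.52, edgeR adjusted p = 0.0090; fasted replicate 4 alone 3.58, adjusted p = 0.074). All 3 transcripts of this locus were higher, and 2 of them passed in fasted replicate 4 alone.

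The last pair of large rises rested on fasted replicates 1 to 3. NONMMUT120084.1 on chromosome 5, over the RefSeq pseudogene Gm18957, stood at 1.26, 2.34, 0.591 and 1.35 CPM in ad libitum livers, at 61.6, 60.6 and 56.7 CPM in fasted replicates 1 to 3 and at 3.42 CPM in fasted replicate 4. Its log2 change of 5.04 (SE 1.01, edgeR adjusted p = 0.022) was 1.30 in fasted replicate 4 alone (adjusted p = 0.28), and the call was lost in 8 of 16 alternative fits, limma-voom and the replicate block among them, with an adjusted p up to 0.13. AC121886.1 on chromosome 18, 26.0 kb from Arap3, stood at 0.115 to 0.200 CPM in ad libitum livers, at 2.53, 2.43 and 1.39 CPM in fasted replicates 1 to 3 and at 0.249 CPM in fasted replicate 4. It held 14, 10, 6 and 8 reads in ad libitum livers and met the read minimum through the fasted libraries, so the size of its change is uncertain. Its log2 change of 3.43 (edgeR adjusted p = 0.018) was 0.69 in fasted replicate 4 (adjusted p = 0.57), and the call was lost in 5 of 15 alternative fits, with limma-voom (adjusted p = 0.27) and without any 1 of the 4 ad libitum libraries.

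The lowest p-values in fasted replicate 4 alone fell to 1810053B23Rik and 1810044K17Rik, described above, and to 3 further loci. NONMMUT107356.1, 16 kb from the RNA-binding protein gene Hnrnpa3 on chromosome 2, stood at 46.4, 55.0, 52.3 and 54.4 CPM and at 108, 114, 111 and 155 CPM, with fasted replicate 4 the highest. It rose by 1.23 on the log2 scale (SE 0.13, edgeR adjusted p = 2.7e-05), and by 1.57 in fasted replicate 4. The tested transcript with most reads over Hnrnpa3 did not pass (52.9 and 48.6 CPM, edgeR adjusted p = 0.52). Gm33447 on chromosome 13, 123 kb from Enc1, rose from 0.392 ± 0.166 to 2.04 ± 0.359 CPM (log2 change 2.39, edgeR adjusted p = 3.9e-05; 2.69 in fasted replicate 4, adjusted p = 0.00016). NONMMUT071653.2 on the X chromosome, spanning chrX:4537119-4552107, fell from 1.76 ± 0.545 to 0.315 ± 0.183 CPM (log2 change -2.43, edgeR adjusted p = 0.0067; -5.10 in fasted replicate 4, adjusted p = 0.00019), with fasted replicate 4 the lowest at 0.0499 CPM.

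**Figure D4:**
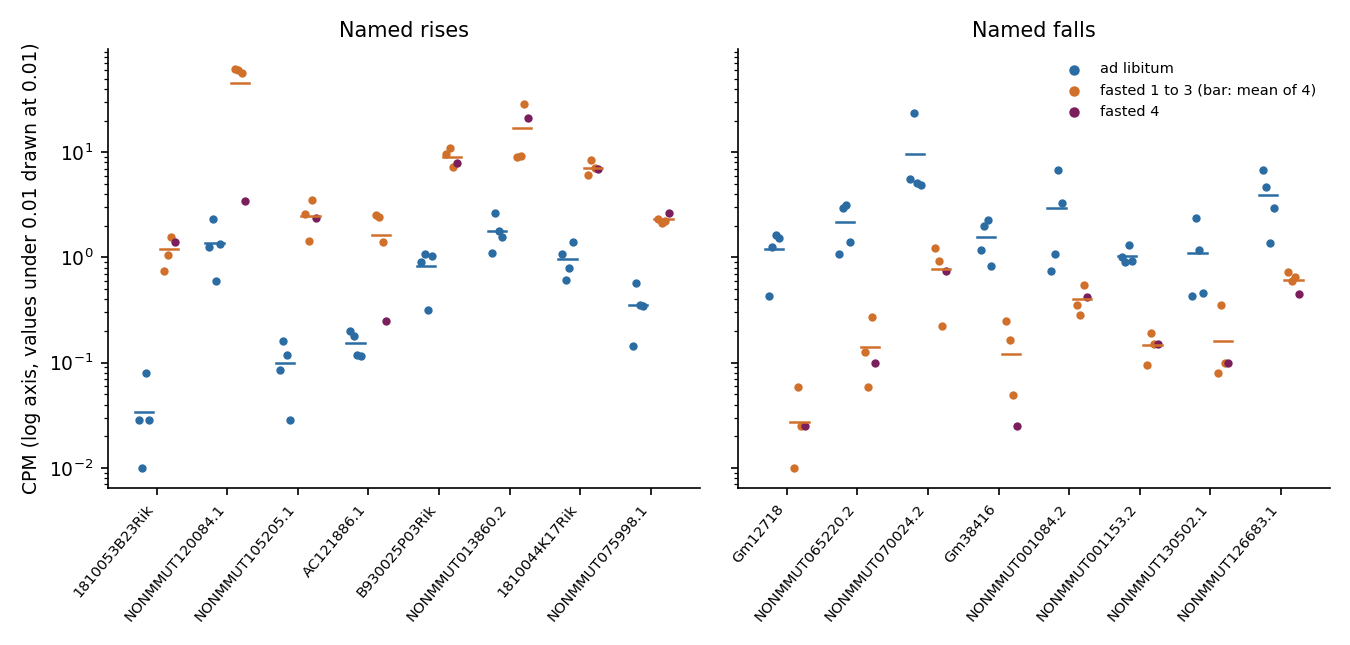
CPM in every library (log axis, values under 0.01 drawn at 0.01) of the 8 largest rises and the 8 largest falls among called transcripts whose groups did not overlap and whose higher group averaged 1 CPM or more, 1 per locus. Horizontal bars are the means of 4. Fasted replicate 4 lies with the other fasted libraries except in NONMMUT120084.1 and AC121886.1, where it is close to the ad libitum libraries.

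Among the falls named by size, Gm12718 had the largest fitted change. NONMMUT048416.2, its transcript on chromosome 4 (chr4:103382500-103492188, 10.6 kb from Oma1, the gene of a protease of the mitochondrial inner membrane), stood at 0.429, 1.26, 1.62 and 1.54 CPM in ad libitum livers. It held 30, 70, 82 and 107 reads there, against 0, 8, 2 and 2 in fasted livers. It met the read minimum through the ad libitum libraries, so the size of its change is uncertain. In fasted replicates 1 to 4 it stood at 0, 0.0593, 0.0248 and 0.0249 CPM, all below every ad libitum library (log2 change -5.34, SE 0.62, edgeR adjusted p = 0.00021; -5.51 in fasted replicate 4, adjusted p = 0.037). The tested transcript with most reads over Oma1 did not pass (2.95 and 2.85 CPM, edgeR adjusted p = 0.87). Gm38416 on chromosome 8, 11.8 kb from Hsd17b2, a steroid dehydrogenase gene, stood at 1.17, 1.98, 2.25 and 0.832 CPM and at 0.247, 0.163, 0.0495 and 0.0249 CPM. It fell by 3.54 on the log2 scale (SE 0.54, edgeR adjusted p = 0.0024), and fasted replicate 4 alone gave a log2 change of -5.87 (adjusted p = 0.0098).

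Falls were also found on both sides of Ppp1r3b on chromosome 8, the gene of the subunit that brings protein phosphatase 1 to glycogen in the liver. Of 11 tested transcripts in 5 loci there, 5 were lower, of which none passed in fasted replicate 4 alone; NONMMUT130501.1, over Gm45301, passed as lower only there (adjusted p = 0.037, against 0.19 in the whole comparison). NONMMUT065220.2 (157 kb from Ppp1r3b) stood at 1.09, 2.95, 3.15 and 1.41 CPM and at 0.127, 0.0593, 0.272 and 0.0998 CPM (log2 change -3.99, SE 0.51, edgeR adjusted p = 0.00088; fasted replicate 4 alone -4.39, adjusted p = 0.067). NONMMUT130502.1 (21.4 kb) stood at 0.429, 2.37, 1.18 and 0.459 CPM and at 0.0797, 0.356, 0.0990 and 0.0998 CPM. Its groups were separate by little, and its call (log2 change -2.72, edgeR adjusted p = 0.037; fasted replicate 4 alone -3.44, adjusted p = 0.36) was lost in 6 of 15 alternative fits, with an adjusted p up to 0.11. Over Ppp1r3b itself, the tested transcript with most reads fell from 303 to 136 CPM (log2 change -1.15, edgeR adjusted p = 4.2e-05). Transcripts of 1 locus may share reads, and for all rows tested the share of falls was 7.67%.

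Other large falls differed in how evenly they were spread over the libraries. NONMMUT001153.2 on chromosome 1, over Gm38388 and 31.1 kb from Raph1, stood at 1.00, 0.899, 1.30 and 0.918 CPM and at 0.0956, 0.193, 0.149 and 0.150 CPM (log2 change -2.79, SE 0.29, edgeR adjusted p = 3.1e-05; -2.77 in fasted replicate 4, adjusted p = 0.0070). NONMMUT126683.1 on chromosome 7 fell from 3.95 ± 2.32 to 0.608 ± 0.117 CPM (log2 change -2.70, edgeR adjusted p = 0.0093; fasted replicate 4 alone -3.14, adjusted p = 0.19). Gm33459 on chromosome 9 was lower in 5 of its 6 tested transcripts, and the groups did not overlap in any of the 6, but none passed in fasted replicate 4 alone. Its transcript NONMMUT070024.2 stood at 5.51, 23.4, 5.05 and 4.88 CPM and at 1.23, 0.935, 0.223 and 0.748 CPM, so ad libitum replicate 2 was far above the rest. The call (log2 change -3.59, SE 0.79, edgeR adjusted p = 0.029; fasted replicate 4 alone -3.69, adjusted p = 0.37) was lost in 5 of 16 alternative fits, with an adjusted p up to 0.076. NONMMUT001084.2, over Gm33724 on chromosome 1, stood at 0.743, 1.08, 6.72 and 3.30 CPM and at 0.282 to 0.545 CPM, and its call (log2 change -2.90, edgeR adjusted p = 0.049; fasted replicate 4 alone -2.78, adjusted p = 0.48) was lost in 8 of 15.

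Of the 125 tested loci with a mean of 10 CPM or more, 46 were called, beside 17.2% of all rows at any level. The groups were separate in 43 of the 46, and 5 of the 21 falls and 6 of the 25 rises were 2-fold or larger. In all rows tested the groups were separate in 9.09% with fasted livers above and 10.2% with fasted livers below. Shares of all rows at this level are not given. Sizes of called changes cannot be set against those of rare transcripts, where only large changes could pass. The loci named in the next paragraphs were chosen after their values were seen, except where a symbol is in the fixed lists. C730036E19Rik on chromosome 1 had the largest fall at this level: NONMMUT003114.2 (chr1:151138185-151143841) stood at 76.4, 91.1, 130 and 126 CPM and at 31.9, 15, 48.0 and 40.4 CPM. The groups were well apart, but the spread was wide (log2 change -1.65, SE 0.38, edgeR adjusted p = 0.028), the call was lost without ad libitum replicate 2, 3 or 4 or fasted replicate 1, with an adjusted p up to 0.085, and fasted replicate 4 alone did not pass (-1.39, adjusted p = 0.42).

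AW112010 on chromosome 19, a transcript described in immune cells, stood at 87.0, 58.7, 100 and 92.3 CPM in ad libitum livers and at 33.4, 34.1, 47.1 and 46.8 CPM in fasted ones. It was lower in every fasted library (log2 change -1.07, SE 0.17, edgeR adjusted p = 0.0018; -0.86 in fasted replicate 4, adjusted p = 0.15). Of the 2 Kupffer markers with a row, Csf1r stood at 3.94 to 5.14 CPM in ad libitum livers and 3.17 to 3.79 CPM in fasted ones. Adgre1 overlapped, at 0.0719 to 0.513 and 0.173 to 0.335 CPM. The 1 blood marker with a row, Ptprc, also overlapped, at 2.37 to 4.28 and 2.04 to 3.28 CPM. The part of these cells in the fall was not tested. At a lower level, Gm36264 on chromosome 13, 17.5 kb from Larp4b, fell from 12.1 ± 1.91 to 3.91 ± 0.623 CPM (log2 change -1.62, SE 0.14, edgeR adjusted p = 8.2e-06; -1.54 in fasted replicate 4, adjusted p = 0.0017).

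9030622O22Rik lies beside Foxa2 on chromosome 2, the gene of a forkhead transcription factor of hepatocytes. Its 10 tested transcripts formed 2 loci, and 9 were lower in fasted livers, with log2 changes from -1.12 to -0.45; in fasted replicate 4 alone 1 of the 10 passed. The transcript with most reads of one locus, NONMMUT040358.2 (log2 change -0.45, edgeR adjusted p = 0.023; fasted replicate 4 alone -0.39, adjusted p = 0.35), lost its call in 6 of 16 alternative fits, with an adjusted p up to 0.12. NONMMUT040361.2, 11.5 kb from Foxa2, stood at 14.7, 11.9, 11.7 and 17.7 CPM and at 8.28, 10.5, 6.09 and 6.73 CPM (log2 change -0.82, SE 0.18, edgeR adjusted p = 0.010; fasted replicate 4 alone -1.06, adjusted p = 0.092). Its call was lost without TMM scaling (adjusted p = 0.076). Over Foxa2, the tested transcript with most reads did not pass (12.5 and 12.2 CPM, edgeR adjusted p = 0.91). Transcripts of 1 locus may share reads, and for all rows tested the share of falls was 7.67%.

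Rises at a high level were also found. Gm35223 (NONMMUT118103.1), 21.6 kb from Insig1, whose protein holds back sterol synthesis in the endoplasmic reticulum, stood at 24.0, 49.7, 32.7 and 30.4 CPM and at 66.5, 61.5, 68.4 and 70.5 CPM (log2 change 0.96, SE 0.18, edgeR adjusted p = 0.0051; 1.04 in fasted replicate 4, adjusted p = 0.092). Gm30784 (NONMMUT123262.1), 10.2 kb from Slco1a4, an organic anion transporter gene, stood at 16.8, 18.2, 19.3 and 15.9 CPM and at 33.3, 49.5, 41.8 and 39.8 CPM (log2 change 1.23, SE 0.12, edgeR adjusted p = 2.4e-05; 1.18 in fasted replicate 4, adjusted p = 0.00094). Gm48199 on chromosome 13, 319 kb from its nearest coding gene, stood at 16.2, 9.46, 12.1 and 5.05 CPM and at 40.3, 71.7, 46.8 and 50.5 CPM. It was higher in all 4 fasted libraries (log2 change 2.29, SE 0.38, edgeR adjusted p = 0.0085), and fasted replicate 4 alone gave 2.24 (adjusted p = 0.13). At a lower level, B630019A10Rik, 20.1 kb from the sialyltransferase gene St6gal1, rose from 3.76 ± 0.997 to 6.96 ± 0.664 CPM (log2 change 0.89, edgeR adjusted p = 0.0023; 0.96 in fasted replicate 4, adjusted p = 0.036).

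A group of 8 loci on 8 chromosomes rose by nearly the same factor. The largest was Gm41800 on chromosome 18, which stood at 265, 269, 301 and 272 CPM in ad libitum livers and at 453, 479, 494 and 606 CPM in fasted ones. The log2 changes of the 8 ran from 0.75 to 0.97, with edgeR adjusted p up to 0.0013, and from 0.93 to 1.15 in fasted replicate 4 alone, with adjusted p up to 0.0053. In all 8 the groups were separate. The ratio of reads of Gm41800 to those of each of the other 7 varied by 1.14 to 1.38 times over the 8 libraries. It was 3.44 to 3.93 for NONMMUT000385.2 on chromosome 1, 4.16 to 5.03 for NONMMUT046091.2 (Gm42252, chromosome 4) and 11 to 12.9 for NONMMUT134310.1 on chromosome 9. The ratio varied more for NONMMUT033402.2 (2.73 to 3.64), NONMMUT058096.2 (6.37 to 8.62), NONMMUT060091.2 (7.72 to 10.6) and NONMMUT005529.2 (8.88 to 11.9). A narrower limit on the ratio was used over the 81 loci with at least 10000 reads. With Gm41800 it was met by NONMMUT000385.2, NONMMUT046091.2 and NONMMUT134310.1 and not by the others. Likeness was common: 44 of the 81 had a partner with near-equal reads or a ratio within that limit. The group of 8 was picked by a looser likeness after its values were seen, so it is a description. Whether the loci share reads was not tested.

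**Figure D5:**
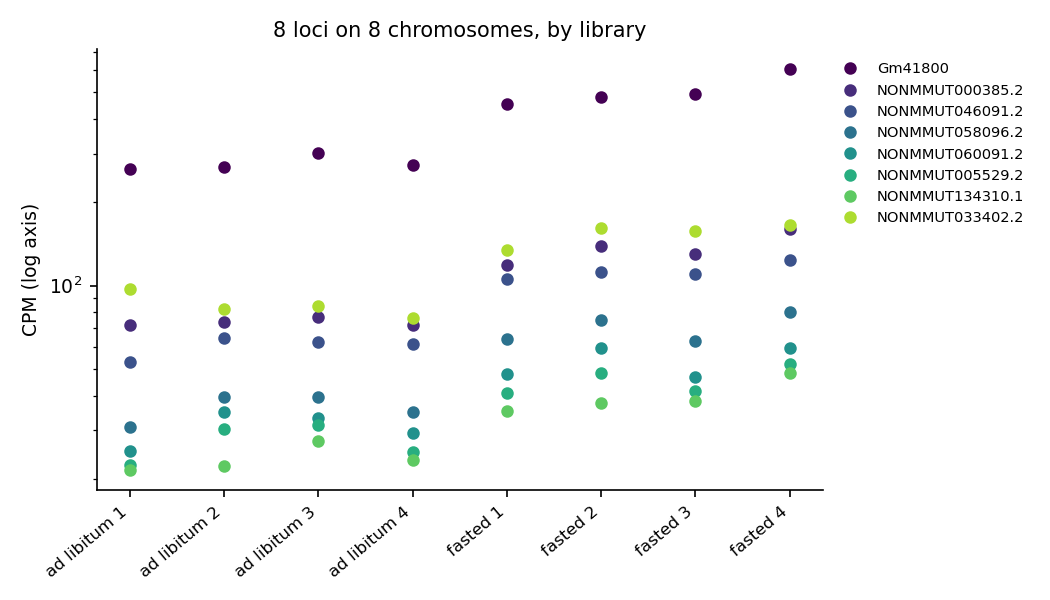
CPM in each library (log axis) of Gm41800 and 7 loci on other chromosomes. They were picked after their values were seen, for ratios of reads that varied by 1.14 to 1.38 times over the libraries. Each of the 8 is higher in all 4 fasted libraries than in any ad libitum library, and fasted replicate 4 holds the highest value of Gm41800, 606 CPM.

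Long non-coding RNAs with names of their own were followed separately. In all, 62 transcripts carried a GENCODE symbol in the fixed lists or one that is not a clone or predicted-gene name. Of these 52 were tested, 7 were higher and 6 lower, and their median log2 change was -0.06. Over all rows tested 9.55% were higher and 7.67% lower. Of the 14 listed as described in liver, 5 were among the 4199 and all 5 were called, 2 higher and 3 lower. This list was chosen with earlier results of these data known, so its count is a description. 4833411C07Rik and C730036E19Rik are given above. 1700027J07Rik was barely detected in ad libitum livers, so the size of its rise is uncertain. 1700027J07Rik rose from 0.0449 ± 0.0372 to 1.00 ± 0.371 CPM (log2 change 4.54, edgeR adjusted p = 0.00010; 4.27 in fasted replicate 4, adjusted p = 0.0018). 1810008I18Rik fell from 33.0 ± 5.49 to 15.2 ± 0.943 CPM (log2 change -1.11, edgeR adjusted p = 5.1e-05; -0.99 in fasted replicate 4, adjusted p = 0.0095). Gm16551, 12.5 kb from Onecut1, fell from 1.00 ± 0.261 to 0.254 ± 0.0749 CPM (log2 change -1.97, edgeR adjusted p = 0.00045; fasted replicate 4 alone -1.51, adjusted p = 0.089).

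Of the nuclear and widely studied RNAs, 5 of 23 were present, with 1 higher and 1 lower. Malat1, which gathers in nuclear speckles, stood at 524 to 665 CPM in ad libitum livers and 498 to 591 CPM in fasted ones (log2 change -0.02, SE 0.12, edgeR adjusted p = 0.93). The spliced transcript within Neat1, the scaffold of paraspeckles, stood at 6.54, 4.21, 4.46 and 4.20 CPM and at 1.37, 2.36, 1.81 and 1.75 CPM (log2 change -1.41, SE 0.19, edgeR adjusted p = 0.00025; -1.48 in fasted replicate 4, adjusted p = 0.022). Lncpint, a target of p53, stood at 5.11, 6.11, 4.49 and 4.13 CPM and at 7.06, 10.2, 9.95 and 8.18 CPM (log2 change 0.83, SE 0.15, edgeR adjusted p = 0.0018; 0.72 in fasted replicate 4, adjusted p = 0.090).

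Further symbols outside the lists also passed. Prox1os, 27.4 kb from the hepatocyte and lymphatic factor gene Prox1, stood at 1.96, 2.63, 1.85 and 2.12 CPM and at 2.94, 2.98, 4.26 and 5.42 CPM (log2 change 0.86, edgeR adjusted p = 0.011; 1.34 in fasted replicate 4, adjusted p = 0.0028), and without ad libitum replicate 1 the adjusted p was 0.053. Kis2 on the X chromosome rose by 0.62 on the log2 scale (edgeR adjusted p = 0.0084), with fasted replicate 4 at 13.7 CPM, level with the highest ad libitum library (log2 change 0.23, adjusted p = 0.59). Trac, the constant segment of the T cell receptor alpha chain, and Slmapos2 passed at 1.32 and 1.37 (edgeR adjusted p = 0.030 and 0.021), but in fasted replicate 4 the changes were 0.03 and -0.13 (adjusted p = 0.99 and 0.93), and both calls were lost in 6 or more alternative fits. Dubr at -0.37 and Platr19 at -1.43 (edgeR adjusted p = 0.044 and 0.046) lost the call in 10 of 16 and 9 of 15 alternative fits, and gave -0.27 and -0.46 in fasted replicate 4 (adjusted p = 0.55 and 0.80).

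The remaining lists held no called transcript. These were imprinted genes (2 tested of 4 present), X-linked genes (4 tested), microRNA hosts (4) and small nucleolar RNA hosts (3), with 0, 1, 1 and 0 at an unadjusted p under 0.05 in edgeR; DESeq2 called 1 imprinted gene and none of the others, and limma-voom called none. By position, 29 transcripts in 12 loci held a whole RefSeq microRNA hairpin on their own strand, among them Mir17hg, Meg3, Mirg and Snhg20. Of the 23 tested none passed in edgeR (lowest adjusted p = 0.12, 5 at an unadjusted p under 0.05), and DESeq2 and limma-voom called none. Kis2, which meets only the end of the Mir106a hairpin, and Dubr, with Mir6363 on the other strand, are not among the 29. Lncppara, 29.3 kb from Ppara, stood at 4.69 to 5.41 CPM in ad libitum livers and 4.72 to 6.07 CPM in fasted ones (log2 change 0.10, SE 0.12). Meg3 was low and uneven, at 0.324 to 0.514 CPM in 3 ad libitum libraries and 2.17 CPM in the remaining one.

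Nearest coding genes were compared where the table held them. Of the 343 called loci, 134 had a tested transcript over the exons of their nearest coding gene. Where a gene had several, the 1 with most reads stood for it. In 26 of the 134 that transcript was called in the same direction and in 9 in the other. Beside 53 lower loci the neighbour was lower in 17 (32.1%) and higher in 3, and beside 81 higher loci it was higher in 9 (11.1%) and lower in 6. Beside the 510 loci that were not called, 13.1% of neighbours were lower and 6.86% higher. These differences were not tested, and neighbours shared by several loci are counted at each. Ppp1r3b and Raph1, whose transcript with most reads fell from 18.2 to 10.2 CPM (log2 change -0.83, edgeR adjusted p = 0.00039), are among the falls beside lower loci. The values are those of catalogue entries over coding exons, not of the messenger RNA.

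Promoter windows could be matched for 398 of the 4199 transcripts, at 233 distinct starts, of which 29 belong to a transcript that rose and 24 to one that fell. Motifs were searched on both strands in these and in all 32851 windows of the RefSeq table. The CRE, the palindromic site of CREB (TGACGTCA), was in 1 of the 29 and 0 of the 24, and in 1.79% of all windows. Its core (CGTCA, with TGACG as its reverse), which the full site contains, was in 5 and 6, and in 20.8% of all. Forkhead sites were in 1 and 1 (TGTTTAC; 3.65% of all) and in 3 and 4 (TGTTTGC; 5.07%). No test was made, and these counts are descriptions.

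The other motifs gave similar counts. The E-box (CACGTG) was in 2 and 2 (7.15% of all windows), the CCAAT box (CCAAT) in 10 and 11 (37.4%), the TATA box (TATAAA) in 4 and 1 (13.6%) and the D-box (TTATGTAA) in 1 and 1 (0.938%). The HNF1 site was in 1 and 0 (0.0609%), HNF4 (CAAAGTCCA) in 0 and 1 (0.475%) and the sterol element (TCACNCCAC) in 0 and 0 (1.24%). The PPAR element, a direct repeat spaced by any base, and the palindromic glucocorticoid element were in none of either kind and in 0.0396% and 0.00913% of all windows. In the windows printed above, 4833411C07Rik holds TGTTTAC at position -250 and the D-box at -53 counted from the start, and Gm33459 holds the D-box at -65, overlapping a CCAAT box in reverse at -58, TGTTTAC at -12 and TGTTTGC at 10. AW112010 holds TGTTTGC at -36 and B930025P03Rik a CCAAT box on each strand. A match is not evidence of binding, and windows without one may hold other forms of the sites.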

How the data were processed

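Total RNA of mouse liver was sequenced in 8 libraries of the TruSeq Stranded Total RNA kit, per the labels' protocols. bcl2fastq 2.17, BWA and the mm10 build are named in the submitters' processing notes; for the counting tool, strand and reads with several positions the sources used here give nothing. Per transcript, the deposited table gives, per the file headers, raw read counts, RPKM, exon number, length and a CNCI score of coding potential. The deposited RPKM were not tested; RPKM were computed anew from the counts and lengths. The mitochondrial 16S rRNA was left out of totals and tests, and its cell is empty in ad libitum replicate 3.

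Counts of all rows were fitted together with edgeR 4.0.16 (quasi-likelihood F test, TMM scaling, filterByExpr, R 4.3.3), two-sided, with Benjamini-Hochberg adjustment over the 40840 rows tested; a transcript passed at an adjusted p under 0.05. The pipeline was tested on simulated counts. Single values were compared by exact permutation with scipy 1.17.1. Alternatives used DESeq2 1.42.0, limma-voom (limma 3.58.1), other scalings and filters, a replicate block and each library left out. GENCODE M21 gave positions of coding genes and pseudogenes, RefSeq GRCm38.p6 the promoter windows and hairpins.

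Transcripts were named by rule: the 8 loci of highest level per length, the 8 largest rises and falls among called transcripts whose groups were separate and whose higher group averaged 1 CPM or more, the 5 lowest p-values of fasted replicate 4, every locus with a listed or non-clone symbol, and those beside each limit. The members and lists were chosen with earlier results of these data known.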

Additional observations from a re-analysis of the deposited data

Results flagged for a closer look

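In 17 of 212 groups of 4 libraries examined, 1 library lay beyond the 95% critical value of Dixon's test, where chance gives about 1 in 20. No cause was tested for any of them.

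Ad libitum replicate 2 held 23.4 CPM of NONMMUT070024.2 (others 4.88 to 5.51) and 21.4 CPM of NONMMUT070025.2 in the same Gm33459 locus (others 4.10 to 5.94), and 14.9 CPM of Gm36264 (NONMMUT016307.2; others 11 to 11.2). Ad libitum replicate 3 held 118 CPM of NONMMUT076768.1 (others 40.2 to 52.0), 2.17 CPM of Meg3 (others 0.324 to 0.514), 0.670 CPM of Platr22 (others 0.0719 to 0.171) and 3.23 CPM of Snhg20 (others 4.32 to 4.53). Ad libitum replicate 1 held 6.54 CPM of Neat1 (others 4.20 to 4.46) and 46.5 CPM of NONMMUT033627.2, on the opposite strand within Neat1 (others 32.5 to 34.3). It was low for Tmem250-ps at 71.4 CPM (others 77.2 to 77.7) and Chn1os3 at 0.200 CPM (others 0.503 to 0.545).

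Fasted replicate 4 was low for NONMMUT120084.1 at 3.42 CPM (others 56.7 to 61.6). It was high for NONMMUT107356.1 at 155 CPM (others 108 to 114) and 1810008I18Rik at 16.6 CPM (others 14.7 to 14.9). Fasted replicate 2 was high for NONMMUT130502.1 at 0.356 CPM (others 0.0797 to 0.0998) and Trbc2 at 0.571 CPM (others 0.173 to 0.200). Fasted replicate 1 was low for Malat1 at 498 CPM (others 588 to 591).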

How the results depend on the processing

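The 341 higher transcripts became 552 with DESeq2, 650 with no low-count filter, 151 at a minimum of 1 CPM in 4 libraries, 132 with a term for fasted replicates 1 to 3, 199 with 1 transcript per locus and 181 at more than 50 kb. The 295 lower ones became 162, 50, 143 and 147 under the last 4 of these. The 200 higher loci became 391 with DESeq2, 124 with limma-voom, 460 with no filter, 97 at 1 CPM, 71 with the term and 93 at more than 50 kb, and the 143 lower loci 92 without TMM, 85, 28 and 62. Leaving out 1 library gave 227 to 583 higher and 194 to 425 lower transcripts, and 123 to 429 higher and 91 to 199 lower loci. The highest counts came without fasted replicate 4. Without fasted replicate 3, 227 transcripts and 123 loci were higher and 91 loci lower; without fasted replicate 1, 125 loci were higher and 195 transcripts and 91 loci lower; without ad libitum replicate 4, 194 transcripts and 91 loci were lower, and without ad libitum replicate 1, 95 loci. The stricter minimum, distance and 1 transcript per locus leave fewer transcripts by construction; the other causes were not tested. No scaling moved the share of rises among calls by over 10 percentage points. With no low-count filter it went from 53.6 to 63.8% of called transcripts, and the term for fasted replicates 1 to 3 moved it further up. In contrast, limma-voom called more falls than rises (229 higher and 273 lower transcripts, 124 higher and 131 lower loci). At a minimum of 1 CPM falls led among transcripts (151 higher and 162 lower) and rises among loci (97 higher and 85 lower).

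With the replicate block 300 transcripts were higher and 250 lower (177 and 117 loci). Deviations from the group means, over pairs of 1 ad libitum and 1 fasted library, correlated between -0.0366 and 0.0397. Pairs of the same number gave 0.0397, -0.00113, 0.0137 and 0.000293 for replicates 1 to 4. Whether libraries of the same number share more than the number cannot be told from this, since fasted replicate 4 lies apart from its group. The share of reads and its ratio to single-exon transcripts kept their direction in every alternative. None passed, but with 1 library left out none could, since the smallest p is then 0.0571, which the ratio reached without fasted replicate 4. Leaving out 1 library moved the differences from -1.268 to -0.141 percentage points and from -0.262 to -0.155 on the log2 scale. Of 1736 alternative values for 104 named transcripts, 1592 kept their side of the threshold, 122 lost the call and 21 gained one. Of the called transcripts 1 changed sign, Slmapos2, at -0.13 with the term for fasted replicates 1 to 3. Among the 1592, 70 values of 24 transcripts that were not called had the other sign. Leaving out members over RefSeq coding genes, pseudogenes or rRNA genes, an alternative chosen after seeing the data, gave 324 higher and 275 lower. At the median SE of 0.32 on the log2 scale, small changes of rare transcripts were not detectable at this depth.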
